A study of Mus musculus with 6 samples.

Results

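The genes described here encode receptors and markers of myeloid cells: Toll-like and NOD-like receptors, C-type lectins, galectins, receptors for the Fc part of antibodies, siglecs and other paired receptors, the MS4A family, and scavenger receptors and lysozymes of macrophages. They were chosen by gene symbol, as genes with 1 symbol in the probe annotation, with earlier results of these data known. The tetranectin gene Clec3b and the B cell antigen gene Ms4a1 were left out. Both were called, Clec3b as higher in high gainers (log2 ratio 2.03) and Ms4a1 as lower (-1.92). Of 94 genes so matched, 60 had a signal on all 6 arrays and were taken at their brightest probe, out of 8596 named genes measured on all arrays. The other 34 matched genes lacked a value on at least 1 array.

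The tissue was inguinal fat, a subcutaneous depot, of male C57BL/6J mice. All mice received low-fat chow until 8 weeks of age and then the high-fat diet D12331 for 4 weeks, singly housed on that diet. High gainers and low gainers differ by the weight they put on, with no difference in strain or diet. RNA of 8 high gainers made up 1 pool and RNA of 8 low gainers another, and each pool was read on 3 arrays, so that n counts arrays, and the p-values measure the technical spread between arrays of a pool and not the variation between mice. The number of arrays limits the precision. In bulk tissue, fewer cells of a type and less RNA in each cell cannot be told apart. Values are quantile-normalized signal intensities, and log2 ratios are high over low gainers throughout. Calls rest on limma over 15821 probes and need a Benjamini-Hochberg adjusted p under 0.01 with a change of at least 1.5-fold. A probe in the lowest 33.3% of these by mean signal, under 7673, counts as dim and is named so for the receptor genes. Genes of the other lists are not marked in this way, except Thy1. Of those named below, Cd22, Ltf, Cd180, Zbtb46 and Plcg1 had signals under 7673 on every array. Ccl22, Lcn2, Dok3, Panx1, Btk and Ptprc had such signals on all high-gainer arrays. Over the 15821 probes r was 0.988 to 0.994 between arrays of the same pool and 0.972 to 0.980 between arrays of different pools. Of 21 adipocyte markers listed, 16 had values on all 6 arrays and 5 (Adipoq, Cfd, Lipe, Lpl and Acsl1) had no named probe and were not analysed here. The signal of all 16 lay above the median of the tested probes.

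Toll-like receptors bind conserved molecules of microbes at the cell surface or in endosomes, and NOD-like receptors sense them in the cytoplasm. C-type lectins and galectins bind sugars of microbes, of dead cells or of the body's own glycoproteins. Activating Fc receptors and TREM receptors pass their signal through partner chains with an ITAM, a short tyrosine motif that recruits the kinase Syk. Inhibitory receptors such as Siglecg carry an ITIM, which recruits the phosphatase Ptpn6. Adipose tissue holds resident macrophages with many of these receptors, and lymph nodes embedded in fat hold lymphocytes, dendritic cells and node macrophages that carry others.

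The MS4A genes lie side by side on chromosome 19 and held the largest change among the 60 genes. The bases upstream of 4 of them are shown because neighbors in this cluster differed in their ratios: Ms4a4c, Ms4a4b and Ms4a6b were lower in high gainers and Ms4a4d was not called. Each line holds the 250 bases before the annotated start on the plus strand, read 5′ to 3′, from the RefSeq genes of mouse GRCm38.p6. Positions are chr19:11407411-11407660 for Ms4a4c, chr19:11443308-11443557 for Ms4a4b, chr19:11518309-11518558 for Ms4a6b and chr19:11536544-11536793 for Ms4a4d. Capitals mark GGAAGT or its reverse complement, letters found in many binding sites of ETS factors such as PU.1, the factor of myeloid and B cells.
Ms4a4c: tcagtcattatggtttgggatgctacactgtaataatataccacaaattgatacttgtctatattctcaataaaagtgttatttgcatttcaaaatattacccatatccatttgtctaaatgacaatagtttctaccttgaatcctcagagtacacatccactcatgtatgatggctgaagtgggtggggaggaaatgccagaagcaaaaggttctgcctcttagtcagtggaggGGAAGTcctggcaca
Ms4a4b: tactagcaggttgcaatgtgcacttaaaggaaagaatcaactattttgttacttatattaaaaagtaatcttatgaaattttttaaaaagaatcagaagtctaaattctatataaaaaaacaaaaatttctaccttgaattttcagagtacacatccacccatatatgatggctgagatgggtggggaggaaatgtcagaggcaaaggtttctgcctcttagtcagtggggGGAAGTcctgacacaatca
Ms4a6b: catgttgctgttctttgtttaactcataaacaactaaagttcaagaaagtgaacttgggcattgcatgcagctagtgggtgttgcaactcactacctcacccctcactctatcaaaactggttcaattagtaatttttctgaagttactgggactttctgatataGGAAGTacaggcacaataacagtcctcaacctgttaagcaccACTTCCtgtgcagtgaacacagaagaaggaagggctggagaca
Ms4a4d: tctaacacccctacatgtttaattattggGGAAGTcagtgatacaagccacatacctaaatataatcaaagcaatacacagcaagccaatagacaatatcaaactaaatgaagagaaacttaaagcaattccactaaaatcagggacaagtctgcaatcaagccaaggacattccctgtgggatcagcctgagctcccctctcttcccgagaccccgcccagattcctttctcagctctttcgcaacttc

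Aligned end to end, the 250 bases of Ms4a4c and Ms4a4b were identical at 70.8% of aligned columns, and the 120 bases nearest the start at 84.7%. The 250 bases of Ms4a4c were identical to those of Ms4a6b at 53.0% and to those of Ms4a4d at 47.3%. For Ms4a4b the order was the reverse, with 47.2% for Ms4a6b and 48.8% for Ms4a4d. The first base of GGAAGT or its reverse complement lay 15 bases before the start in Ms4a4c, 19 in Ms4a4b, 85 and 43 in Ms4a6b, and 221 in Ms4a4d. In Siglech, also lower in high gainers but not printed, it lay 156 bases before the start. Trem2, higher in high gainers and not printed either, held these letters on neither strand of its 250 bases. Of the 60 genes 49 had an entry in the promoter table, among them 10 of the 11 that were lower in high gainers, and 21 of the 49 (42.9%) held GGAAGT on either strand of these 250 bases, beside 22.2% of 27025 genes of the table. Among other motifs counted, GGAAGT with GA before it, which lies within the hits of GGAAGT, was in 3 of the 49, beside 2.79% of all genes. The interferon response letters GAAA, any 2 letters and GAAA were in 4 of the 49, beside 3.46% of all genes, with 0 of the 10 that were lower and 4 of 37 that were not called. GGAAGT itself was found in 5 of the 10 that were lower and in 16 of 37 that were not called (43.2%). The motifs, the 4 genes printed and the window of 120 bases were chosen after these sequences had been seen, and a match is a run of letters, not a binding site.

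Across the 60 genes, 11 were lower in high gainers, 2 were higher and 47 were not called. The share that was lower was 18.3% of these genes, beside 3.99% of all probes tested, and the share that was higher was 3.33%, beside 2.50%. The 11 lower genes were Ms4a4c, Siglech, Clec2i, Ms4a4b, Siglecg, Marco, Clec9a, Tlr1, Ms4a6b, Clec4n and Clec1b, and the 2 higher genes were Trem2 and Tlr5. The median log2 ratio of the 60 genes was 0.01, with 0.03 over all probes. The 3 high-gainer arrays lay below the 3 low-gainer arrays for 19 genes (31.7%, with 16.3% of all probes) and above them for 13 (21.7%, with 20.3% of all probes). Before adjustment, limma p-values under 0.05 were found for 17 lower and 9 higher genes of the 60. Over all 15821 probes the counts were 2144 lower (13.6%) and 2756 higher (17.4%). The 47 genes that were not called include Adgre1, Mrc1, Clec10a and the Fc receptors. After Benjamini-Hochberg adjustment the methods' ANOVA kept Siglech, Siglecg and Ms4a4b of the 13 calls.

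**Figure D1:**
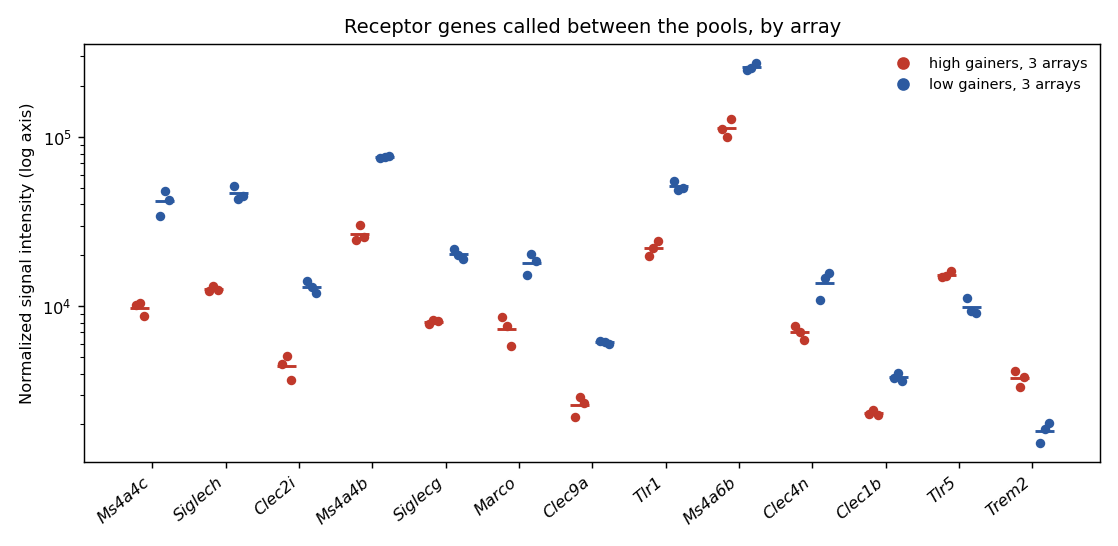
Normalized signal intensity (log axis) of the 13 receptor genes called between the pools, on each array; red points are the 3 arrays of high gainers, blue points the 3 arrays of low gainers, and short lines are means. The 2 sets of arrays do not overlap for any gene shown, and signals of different genes come from different probes and are not to be set against each other.

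Of 9 MS4A genes, which encode membrane proteins with several spans, 3 were lower in high gainers and none was higher. Ms4a4c had signals of 10158, 10448 and 8730 on the high-gainer arrays and 34334, 48272 and 42646 on the low-gainer arrays. The highest high-gainer array thus lay well below the lowest low-gainer array, and the gene was 4.24-fold lower in high gainers (log2 ratio -2.08, SE 0.15, limma adjusted p = 0.000252). Ms4a4b, known from T cells, was at 24521, 30352 and 25788 in high gainers and 75079, 76077 and 77234 in low gainers. It was 2.84-fold lower (log2 ratio -1.51, SE 0.11, adjusted p = 0.000274), with close arrays in the low-gainer pool. For Ms4a6b the signals were 111087, 100013 and 127458 in high gainers and 249932, 256048 and 274374 in low gainers, a 2.31-fold decrease (log2 ratio -1.21, SE 0.12, adjusted p = 0.000674). Leaving out any 1 of the 6 arrays kept all 3 calls.

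The genes next to them on the chromosome did not all share this ratio. In the order of the RefSeq genes, Ms4a4c and Ms4a4b are direct neighbors, followed by Ms4a6c, 1 other gene, Ms4a6b, Ms4a4d and Ms4a6d. Ms4a6c, between the lower genes, was at 42006, 38757 and 46737 in high gainers and 54321, 71343 and 59552 in low gainers. Its arrays did not overlap, yet its log2 ratio of -0.53 was not called (adjusted p = 0.0337 from limma). Ms4a4d had a log2 ratio of 0.13 (95% interval -0.12 to 0.38) and Ms4a6d one of 0.38 (0.10 to 0.66). Ms4a7, a macrophage gene before Ms4a4c with 1 gene between them, was at -0.22 and was not called. Ms4a8a (0.32, dim) and Ms4a19 (0.54, limma adjusted p = 0.0151), which come before Ms4a7, were not called either. Ms4a2, the beta chain of the IgE receptor of mast cells, had no value on any array. The probe sequences were not used here, and whether probes of such similar genes also read a neighbor's RNA was not tested.

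**Figure D2:**
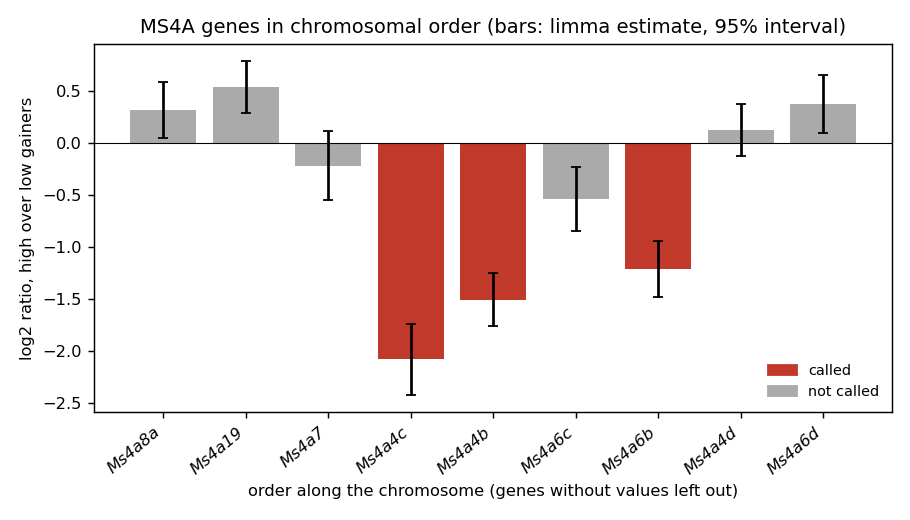
Log2 ratio of high over low gainers (bars) with 95% confidence intervals from limma for the 9 measured MS4A genes in their order on chromosome 19; red bars were called, gray bars were not. Ms4a4c, Ms4a4b and Ms4a6b lie between -2.08 and -1.21, while the 2 genes that follow, Ms4a4d and Ms4a6d, lie above 0.

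Among 6 siglecs and other paired receptors, Siglech and Siglecg were lower in high gainers and Trem2 was higher. Siglech, a receptor of plasmacytoid dendritic cells, had signals of 12255, 13143 and 12460 in high gainers and 51758, 42898 and 44933 in low gainers. Every high-gainer array was below every low-gainer array, and the gene was 3.68-fold lower (log2 ratio -1.88, SE 0.11, limma adjusted p = 0.000174). Siglecg, an inhibitory receptor of B cells, was at 7907, 8308 and 8167 in high gainers and 21841, 20211 and 18968 in low gainers, 2.50-fold lower (log2 ratio -1.32, SE 0.10, adjusted p = 0.00028). Both calls held whichever array was left out.

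Trem2, a receptor of macrophages for lipids and lipoproteins that signals through Tyrobp, moved the other way. Its signals were 4160, 3350 and 3824 in high gainers and 1552, 1876 and 2030 in low gainers, from a dim probe. The arrays did not overlap, and it was 2.08-fold higher in high gainers (log2 1.06, 95% interval 0.74 to 1.38, adjusted p = 0.00241 from limma). When each array was left out in turn, the call held in 3 of 6 fits. It was lost without high gainers replicate 1, where the adjusted p was highest at 0.0143, and also when high gainers replicate 3 or low gainers replicate 2 was removed. It was lost as well by the adjusted ANOVA and with an offset added to the signals, where the log2 ratio was 0.51. Trem3 and Treml4, genes of the same cluster on chromosome 17 with dim probes, had log2 ratios of -0.43 and -0.20 and were not called. Pirb, an inhibitory receptor for major histocompatibility complex class I, was not called at -0.15.

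C-type lectins formed the largest group, with 15 genes, of which 4 were lower in high gainers, none was higher and 11 were not called. Clec9a, by which conventional dendritic cells of the cross-presenting type detect dead cells, was at 2201, 2902 and 2690 in high gainers and 6195, 6179 and 5965 in low gainers with a dim probe. It was 2.37-fold lower (log2 ratio -1.24, SE 0.12, limma adjusted p = 0.000729). Clec4n, which encodes dectin-2, a receptor for fungal mannans, was at 7683, 7011 and 6300 in high gainers and 10953, 14685 and 15795 in low gainers. The low-gainer arrays spread more widely than the high-gainer arrays, and the gene was 1.96-fold lower (log2 ratio -0.97, SE 0.16, adjusted p = 0.00667). Of the 6 fits that each leave out an array, only that without low gainers replicate 1 kept the call, and the adjusted p rose to 0.0277 without low gainers replicate 2.

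Clec2i, a ligand of NKR-P1 receptors of natural killer cells, was at 4528, 5049 and 3682 in high gainers and 14068, 12951 and 11965 in low gainers. This was a 2.96-fold decrease (log2 ratio -1.56, SE 0.14, limma adjusted p = 0.000493) with a dim probe. Clec2g, the gene next to it and also dim, had a log2 ratio of -0.60, with arrays that overlapped (adjusted p = 0.106), and Clec2d of the same family was at 0.43. Clec1b encodes CLEC-2, the receptor for podoplanin on platelets and dendritic cells, and had signals of 2313, 2451 and 2268 in high gainers and 3789, 4049 and 3634 in low gainers. It was 1.63-fold lower with a dim probe (log2 ratio -0.71, SE 0.09, adjusted p = 0.00275), a call kept only without low gainers replicate 1 when each array was left out, with the adjusted p highest (0.0191) without high gainers replicate 1. In gene order, Clec1b and Clec9a are neighbors between Clec12a and Clec1a, which were both at 0.03.

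Mrc1, Clec10a and Clec7a, among the lectins that were not called, had small ratios. They do not stand for all macrophage genes, since Marco and Timd4, described below, were called lower. Mrc1, the mannose receptor, was at 129957, 142201 and 133453 in high gainers and 134976, 119656 and 115683 in low gainers. Clec10a, a lectin for galactose residues, was at 329445, 286955 and 336331 in high gainers and 317408, 291164 and 283082 in low gainers. In both genes the arrays of the pools overlapped, with log2 ratios of 0.13 (95% interval -0.10 to 0.37) for Mrc1 and 0.09 (-0.15 to 0.34) for Clec10a. Clec7a, which encodes the beta-glucan receptor dectin-1, had a dim probe and a log2 ratio of 0.04 (-0.28 to 0.37). The remaining lectins were Clec4a1 at 0.20, the secreted growth factor gene Clec11a at 0.22, the endothelial gene Clec14a at 0.30 and Clec4b1 at 0.59, the last 2 with dim probes. Clec4b1 had the largest positive ratio of the group (adjusted p = 0.0399) and passed only when the adjusted p was allowed to reach 0.05.

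**Figure D3:**
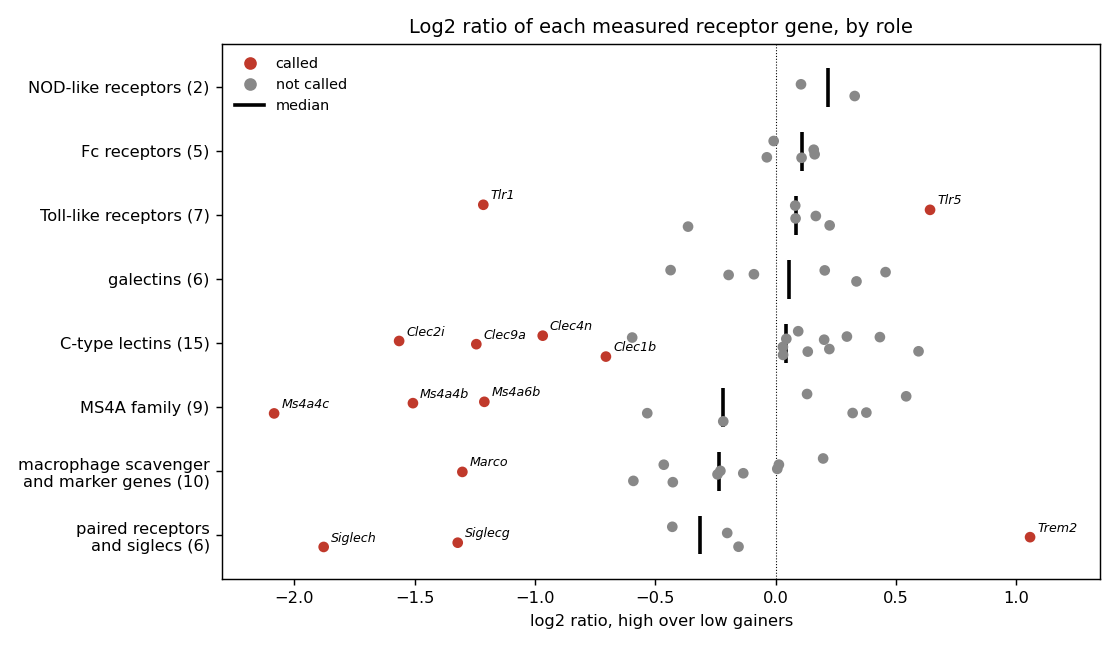
Log2 ratio of high over low gainers for each of the 60 measured genes, grouped by role with the number of genes in parentheses; red points were called, gray points were not, and black lines are medians of the groups. The called genes with negative ratios lie in the MS4A, siglec, lectin, Toll-like receptor and macrophage groups, while the 5 Fc receptor genes stay between -0.04 and 0.16.

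Of 7 Toll-like receptors, Tlr1 was lower in high gainers, Tlr5 was higher and 5 were not called. Tlr1, which pairs with Tlr2 to bind bacterial lipopeptides, was at 19876, 22047 and 24337 in high gainers and 54946, 48662 and 49899 in low gainers. It was 2.32-fold lower (log2 ratio -1.22, SE 0.11, limma adjusted p = 0.000576) and the call held whichever array was left out. Tlr2, its partner, was at 15616, 18331 and 17300 in high gainers and 16166, 15880 and 16237 in low gainers. Those arrays overlapped, and the log2 ratio of Tlr2 was 0.08 (95% interval -0.15 to 0.31). Centering on the median change of adipocyte markers, a shift of 0.0927 on the log2 scale, put Tlr2 at -0.0098.

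Tlr5, the receptor for bacterial flagellin, had signals of 14920, 15027 and 16170 in high gainers and 11125, 9440 and 9089 in low gainers. The arrays did not overlap, and it was 1.56-fold higher in high gainers (log2 0.64, 95% interval 0.38 to 0.90, adjusted p = 0.0083 from limma). This lies close to both thresholds. Of the 6 fits that each leave out an array, that without low gainers replicate 1 kept the call, and the adjusted p was highest, at 0.0387, without low gainers replicate 3. After centering on adipocyte markers the log2 ratio was 0.55 and the call was lost, as it was by the adjusted ANOVA. The endosomal receptors, which bind nucleic acids, all had dim probes and were not called, with Tlr3 at 0.17, Tlr7 at -0.36, Tlr9 at 0.22 and Tlr13 at 0.08. Of the NOD-like receptors, Nod1, a sensor of bacterial peptidoglycan, was at 0.11 (95% interval -0.15 to 0.36), and Nlrx1, a mitochondrial member, at 0.33 with a dim probe (adjusted p = 0.0777).

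None of the 5 Fc receptor genes was called in either direction, and none passed at an unadjusted p under 0.05 from limma. Fcgr3, an activating receptor for immune complexes of IgG, was at 203361, 208294 and 226142 in high gainers and 193182, 184355 and 192000 in low gainers. Its arrays did not overlap, with a log2 ratio of 0.16 (95% interval -0.05 to 0.38, adjusted p = 0.284 from limma). Fcgr2b, the inhibitory Fc receptor, was at 22920, 24045 and 22585 in high gainers and 17733, 23199 and 21767 in low gainers, a log2 ratio of 0.16 (-0.13 to 0.44). The high-affinity receptor Fcgr1, with a dim probe, was at 0.11 (-0.22 to 0.44) and the activating receptor Fcgr4 at -0.01 (-0.35 to 0.34). Fcgrt, the neonatal Fc receptor that saves IgG from degradation, was at -0.04 (-0.28 to 0.20), and at 0.02 without low gainers replicate 2. All 5 intervals lie between -0.35 and 0.44 on the log2 scale, inside the 1.5-fold threshold in both directions. The methods' ANOVA called none of them either.

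**Figure D4:**
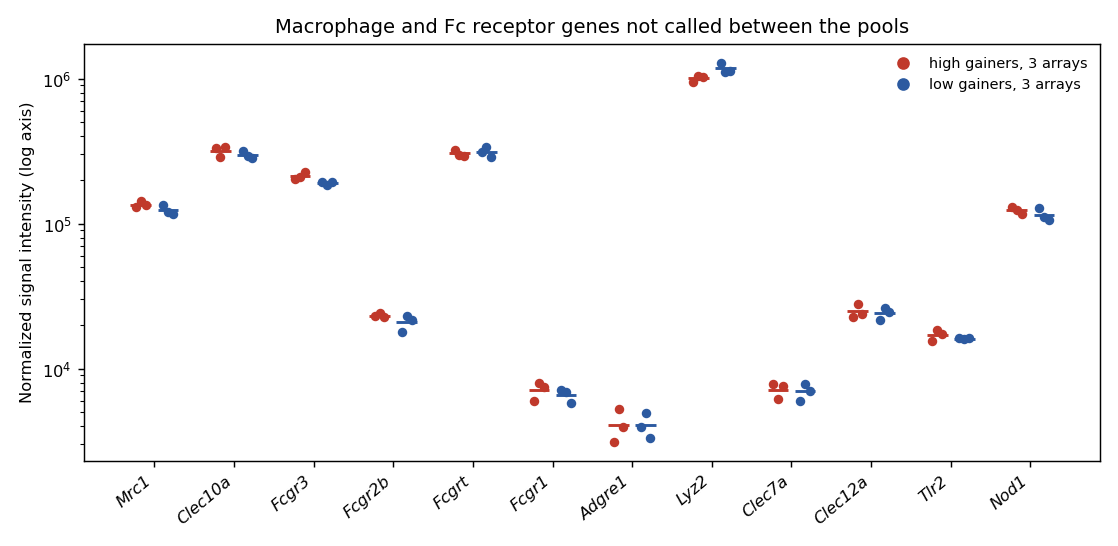
Normalized signal intensity (log axis) of 12 macrophage, lectin, Fc receptor and pattern receptor genes that were not called, on each array; red points are the 3 arrays of high gainers, blue points the 3 arrays of low gainers, and short lines are means. The arrays of the pools overlap for all genes shown except Fcgr3 and Lyz2. The 12 genes are a selection from those not called. Genes left out include some without overlap, such as Aif1, Adgre4, Lyz1 and Ms4a6c (lower) and Clec4b1 and Clec11a (higher).

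Of 10 scavenger receptors and macrophage markers, Marco was lower in high gainers and 9 were not called. The median log2 ratio of the group was -0.24, all high-gainer arrays lay below all low-gainer arrays for 5 of the 10, and before adjustment 4 were lower and 0 higher at a limma p under 0.05 (Marco, Aif1, Adgre4 and Lyz1). Marco, a scavenger receptor of macrophages in lymph nodes and spleen, was at 8648, 7637 and 5807 in high gainers and 15248, 20267 and 18608 in low gainers. Both pools spread widely without overlap, and the gene was 2.47-fold lower (log2 ratio -1.30, SE 0.18, limma adjusted p = 0.00285). When each array was left out in turn the call held in 3 of 6 fits, and it was lost without high gainers replicate 2, without low gainers replicate 3 and without low gainers replicate 2, where the adjusted p was 0.0131. Msr1, another scavenger receptor, was at -0.24 with a dim probe and overlapping arrays.

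Adgre1, which encodes the macrophage antigen F4/80, was at 3130, 5239 and 3951 in high gainers and 3925, 4933 and 3299 in low gainers. These overlapped fully, with a log2 ratio of 0.01, but the probe was dim and the 95% interval of -0.50 to 0.51 was wide. Aif1, which encodes the macrophage protein Iba1, was at 12648, 15805 and 13485 in high gainers and 20272, 22126 and 20553 in low gainers. Its arrays did not overlap and its log2 ratio was -0.59 with an adjusted p of 0.0127 from limma, just outside the call, and 6 of the alternative settings called it lower. Lyz2, the lysozyme of macrophages and neutrophils, was at 953288, 1036871 and 1017663 in high gainers and 1281738, 1113399 and 1136282 in low gainers, a log2 ratio of -0.23 that was not called. Its copy Lyz1 was at -0.43 (adjusted p = 0.0394), and whether probes of such similar genes read each other's RNA was not tested. The adhesion receptors Adgre4 (-0.46, dim) and Adgre5 (-0.13) and the lysozyme-like genes Lyzl4 (0.01) and Lyzl6 (0.20) completed the group.

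No galectin was called by limma or by the methods' ANOVA, and before adjustment 1 higher and 1 lower galectin had a limma p under 0.05. Lgals1 was at 1316830, 1117844 and 1403256 in high gainers and 797350, 1226004 and 1050641 in low gainers, with overlapping arrays and a log2 ratio of 0.34 (95% interval -0.07 to 0.74). Lgalsl was at 0.46 (adjusted p = 0.0454 from limma) and Lgals12, a galectin of adipocytes with a dim probe, at -0.44 (adjusted p = 0.0235), both with arrays that did not overlap. Lgals8 was at 0.20, Lgals4 at -0.09 and Lgals3bp, which encodes a binding partner of galectin-3, at -0.20.

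Among the 34 matched genes without values on all arrays, 21 had none, among them Nod2, Trem1, Siglece, Siglecf and the IgE receptor chain Fcer1a. A few were blank on all arrays of 1 pool. Lgals3, which encodes galectin-3, a lectin abundant in lipid-laden macrophages, had values of 1852, 2776 and 2096 in high gainers and none in low gainers. Tlr12, a receptor for profilin of parasites, was at 1882, 2284 and 1939 and Nlrp10 at 1338, 1379 and 1114 in low gainers, with none in high gainers. Clec4e, which encodes the receptor Mincle, had 1 value in high gainers and 3 in low gainers. No fold was computed for these, and all values printed for them lie in the dim range. The rest had values on 1 to 5 arrays.

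The signaling genes downstream of ITAM and ITIM receptors were described from a list of 30, of which 17 were measured. In high gainers 9 were lower and none was higher, with a median log2 ratio of -0.85. Ptpn6, the phosphatase recruited by ITIM receptors, was 2.65-fold lower (log2 -1.40, adjusted p = 0.000312 from limma), the adaptor Dok3 was 2.95-fold lower (-1.56) and the kinase Syk 2.03-fold lower (-1.02). Blnk, Btk and Plcg2, which act downstream of the B cell receptor, were also lower, with log2 ratios of -1.27, -0.85 and -1.01. Grb2 and Plcg1, which most cells use, were at -0.01 and 0.14 and were not called. Many genes of this list are used by lymphocytes as well as by myeloid cells.

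Of 30 measured genes of Toll-like receptor signaling, 4 were lower, 1 was higher and 25 were not called, with a median of -0.07. Before adjustment, 10 were lower and 2 higher at a limma p under 0.05. Cd180 and Ly86, which form a receptor complex of B cells and dendritic cells related to Tlr4, were lower by 2.17-fold (log2 -1.12) and 1.77-fold (-0.82). The transcription factor Irf5 and the kinase Ikbke were at -0.71 and -0.65. Without any 1 of the 6 arrays, 0 or 1 gene of this list was lower. Lbp, which hands lipopolysaccharide to Cd14, was the higher gene, at 1.56, while Cd14 itself was at 0.10 and Ly96, the co-receptor of Tlr4, at -0.08. Among 13 genes of inflammasomes and NOD signaling, Birc3 (-0.77), Pycard (-0.68), the adaptor of inflammasomes, and Panx1 (-0.68) were lower and none was higher, with a median of -0.33. Leaving out an array gave 0 to 2 lower, and the brightest gene, Sugt1, was at -0.05. With limma p under 0.05 before adjustment, 8 of the 13 were lower and 1 was higher.

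Markers of other cells moved between the pools too. All 12 measured genes of a list of 18 for B lymphocytes were lower in high gainers (median -1.59), with a summed signal of 260917 to 278349 on high-gainer arrays and 836462 to 880761 on low-gainer arrays. For T lymphocytes 9 of 11 measured genes, of 20 listed, were lower (median -1.56), with sums of 136761 to 164418 and 405785 to 462181. Natural killer cells had 2 of 12 lower, Klrd1 (-1.27) and Nkg7 (-1.20), with a median of -0.64 and sums of 84825 to 95619 and 172874 to 187674. At an unadjusted limma p under 0.05, 10 of these 12 were lower, and for 9 all high-gainer arrays lay below all low-gainer arrays. The most changed genes were Cd22 (-2.05) and Ms4a1 (-1.92) for B cells and Cd3g (-1.85) and Cd8b1 (-1.82) for T cells. The brightest genes of these lists were Ltb (-1.70) and Cd2 (-1.33). Every gene counted as measured has values on all 6 arrays by the selection of probes, so this shows nothing about lymphocyte RNA in both pools. The part of lymphocytes in the lower receptor genes was not tested, and several of those genes, such as Siglecg and Ms4a4b, are themselves known from lymphocytes.

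Among 18 measured markers of dendritic cells other than the receptor genes, 5 were lower, none was higher and the median was -0.59. For 14 of the 18 all high-gainer arrays lay below all low-gainer arrays, and 14 were lower at an unadjusted p under 0.05. The count of 5 became 6 without low gainers replicate 1 and 3 without any other array. Ccr7, the receptor that guides dendritic cells and lymphocytes to lymph nodes, was at -1.69 and Ccl22 at -1.78. Irf8, a factor that plasmacytoid and cross-presenting dendritic cells need, was at -1.26. Cd74 (-0.88) and H2-Ab1 (-0.73) were called lower as well. Ccr7 is also counted in the list of T lymphocytes, and the part of lymphocytes in these ratios was not tested. The summed signal of all 18 ran from 1881006 to 2175867 in high gainers and from 2983348 to 3382973 in low gainers. On high gainers replicate 1, H2-Eb1 (925113) and Cd74 (606694) held most of this sum, so that it can show little of the other genes. Zbtb46, a marker of conventional dendritic cells, was at 0.24, Batf3 at -0.15 and Cd209a at 0.06, and none of these was called. H2-Eb1, the brightest gene (-0.47), was not called either. Of 31 measured markers of macrophages and monocytes other than the receptor genes, 7 were lower, none was higher and the median was 0.06. At an unadjusted p under 0.05, 13 were lower and 10 higher. The count of 7 became 4 without high gainers replicate 1 or 2 and 5 to 6 without any other array. The lower genes were Ptprc (-1.28), Cd53 and Cd52, which lymphocytes also express, and Timd4 (-1.25), Ncf1, Ctss and Trpv2. C1qa (0.43) and Cd163 (0.44) were higher on every high-gainer array than on any low-gainer array without being called (adjusted p = 0.0377 and 0.0151 from limma). The other C1q chains C1qb (-0.00) and C1qc (0.06) and Lyve1 (0.09) had overlapping arrays. The summed signal of the macrophage list was 6718288 to 6837639 in high gainers and 6626793 to 7082075 in low gainers. Apoe, its brightest gene (0.07), stood on 5 of 6 arrays at 2833436, the highest value of every array, so that this sum can show little of a change in the list.

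**Figure D5:**
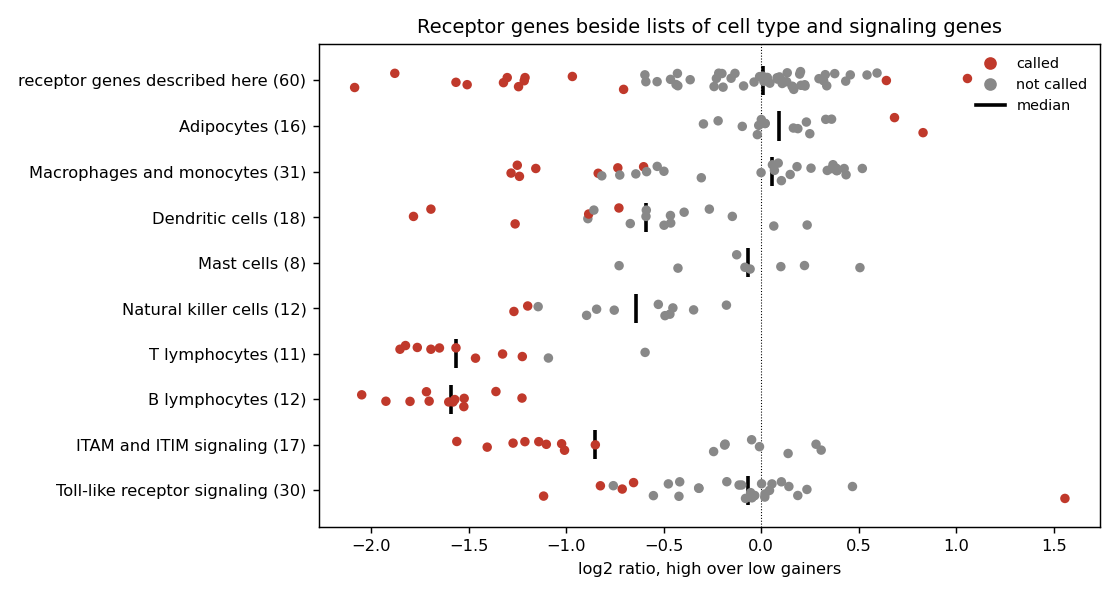
Log2 ratio of high over low gainers for the 60 receptor genes (top) and for measured genes of lists of cell types and signaling pathways, with the number of genes in parentheses; red points were called, gray points were not, and black lines are medians. The medians are 0.01 for the receptor genes, 0.06 for macrophages, -0.59 for dendritic cells, -1.59 for B lymphocytes and -0.85 for ITAM and ITIM signaling.

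Neutrophil markers had 1 of 10 higher (Prtn3, 0.83) and 2 lower (Ltf, -1.95, and Lcn2, -1.30, which epithelia express as well), Csf3r as the brightest gene at -0.37, a median of 0.43, and sums of 785867 to 916739 in high gainers and 817750 to 1001376 in low gainers. Mast cell markers had 0 of 8 called by limma and by the methods' ANOVA, with 1 higher and 1 lower at a p under 0.05 before adjustment, Tpsb2 as the brightest gene at -0.43, and a median of -0.07. Stromal markers had 3 of 15 higher, among them Dpt (1.18) and Clec3b (2.03), 1 lower (Thy1, -0.74), Dcn as the brightest gene at 0.12 and a median of 0.44, with sums of 5888717 to 6878060 in high gainers and 4886705 to 5773012 in low gainers. The call of Thy1, a dim probe, was lost whichever array was left out. With limma p under 0.05 before adjustment, 10 of the 15 stromal genes were higher and 1 was lower. Of the 10 neutrophil genes, 5 were higher and 4 lower at that p. Of the adipocyte list Lep and Plin4 were higher and 0 genes lower. Neither was called without high gainers replicate 1, high gainers replicate 2 or low gainers replicate 3. The brightest gene, Dgat2, was at -0.22, the median was 0.09, and the sums were 10060267 to 10906476 in high gainers and 9827447 to 10178882 in low gainers.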

How the data were processed

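RNA was transcribed into digoxigenin-labeled cRNA and hybridized to one-color mouse arrays with chemiluminescent detection, and the authors quantile normalized the signals. The deposited table holds linear signal intensities of 33012 probes on 6 arrays, with 18018 to 20605 values per array and blank cells elsewhere. Why a cell is blank is not stated, so a blank was taken as not measured.

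The 15821 probes with values on all 6 arrays were log2 transformed without further normalization and fitted with limma 3.58.1 (lmFit, eBayes) in R 4.3.3 after a test on simulated data, and p-values were adjusted by Benjamini-Hochberg over all of them. Intervals are 95% intervals of the fit. The methods' ANOVA, an equal-variance test of the 2 pools at an unadjusted p of 0.01, was an alternative. So were another quantile normalization, centering on all probes or on adipocyte markers, filters on dim probes, an offset at the 10th percentile (2848), a trend with robust estimation, other thresholds, the array number as a block, leaving out each array, the mean over probes of a gene, and probes with values on at least 4 arrays.

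Genes were named from a probe annotation that pairs 14411 probes with 1 symbol, 247 with more and 18354 with none. Probes of more than 1 symbol were not used, among them 4 that match the rule. Csf1r, Myd88, Tyrobp, Mpeg1, Tlr4 and Fcer1g had no named probe and were not analysed here. The receptor genes, the lists and the tests were chosen with earlier results of these data known. By rule, the text names every called receptor gene, the 2 brightest and the 2 most changed of each role, those whose call differs in an alternative, and for each list the 2 most changed called genes and the brightest; other names were chosen after their values were seen. Deviations from the pool means of arrays with equal number correlated at 0.04, -0.11 and 0.27, so equal numbers were not read as pairs.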

Additional observations from a re-analysis of the deposited data

How the results depend on the processing

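Of 11 receptor genes lower in high gainers, 6 were called without probes below the median signal (6 of the 11 lie below it, and Aif1 is gained) and 3 by the methods' ANOVA after adjustment. Leaving out each array in turn gave 8 to 11. Of 2 higher, 1 was called at a 2-fold threshold, after centering on adipocyte markers, with values on at least 4 arrays or without dim probes, and 0 by the adjusted ANOVA, with the offset or without probes below the median. Leaving out each array gave 0 to 2, with 0 for high gainers replicate 1, high gainers replicate 3 and low gainers replicate 2. The median of the 60 genes was -0.083 after that centering, 0.031 without probes below the median, and -0.028 to 0.023 with each array left out. Under the array number as a replicate block, 8 were lower and 0 higher, and the calls of Trem2, Tlr5, Marco, Clec4n and Clec1b were lost. Over all probes, 396 were higher and 632 lower. The higher count became 98 at 2-fold, 695 at an adjusted p of 0.05, 254 after centering on adipocyte markers, 46 by the adjusted ANOVA, 173 with the replicate block, 238 without probes below the median and 105 to 319 with each array left out. The lower count became 402 at 2-fold, 111 by the adjusted ANOVA, 306 without probes below the median and 368 to 493 with each array left out.

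Counts of lower genes in the lists moved as follows. The adjusted ANOVA gave 6 for B lymphocytes, 5 for T lymphocytes, 1 for natural killer cells, 1 for dendritic cells, 2 for macrophages, 3 for ITAM and ITIM signaling, and 0 for Toll-like receptor signaling, inflammasomes, neutrophils and stromal cells. Without probes below the median there were 7 for B lymphocytes, 5 for T lymphocytes, 4 for ITAM and ITIM signaling, 2 for Toll-like receptor signaling and 0 for neutrophils and stromal cells. At 2-fold there were 3 for dendritic cells, 4 for macrophages, 1 for Toll-like receptor signaling and 0 for inflammasomes and stromal cells. At an adjusted p of 0.05 there were 10 for dendritic cells and 4 for natural killer cells. Dendritic cells had 9 after centering on adipocyte markers and 8 by the unadjusted ANOVA. The replicate block gave 1 for Toll-like receptor signaling, 1 for inflammasomes and 0 for stromal cells. Values on at least 4 arrays gave 2 for Toll-like receptor signaling and 0 for stromal cells, the offset gave 0 for stromal cells, and leaving out dim probes 0 for stromal cells and neutrophils. Higher genes became 0 at 2-fold for adipocytes and neutrophils, 0 by the adjusted ANOVA for adipocytes, neutrophils and stromal cells, 1 for adipocytes and 0 for neutrophils with the replicate block, 1 for stromal cells without probes below the median and 5 without a fold threshold, and 2 for neutrophils under 8 other settings. With each array left out, lower genes numbered 12 to 12 for B lymphocytes, 8 to 10 for T lymphocytes, 2 to 3 for natural killer cells, 3 to 6 for dendritic cells, 4 to 6 for macrophages, 8 to 8 for ITAM and ITIM signaling, 0 to 1 for Toll-like receptor signaling, 0 to 2 for inflammasomes and 0 to 0 for stromal cells, and higher genes 0 to 2 for adipocytes, 0 to 1 for neutrophils and 2 to 3 for stromal cells.

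Ratios near 0 changed sign, and none of these was called. After centering on adipocyte markers, Adgre1 was at -0.086, Clec12a at -0.062, Clec1a at -0.063, Clec7a at -0.048, Lyzl4 at -0.079, Tlr13 at -0.011 and Tlr2 at -0.0098. Another quantile normalization put Adgre1 at -0.0014. With each array left out the ranges that crossed 0 were -0.18 to 0.19 for Adgre1, -0.053 to 0.093 for Clec12a, -0.053 to 0.14 for Clec1a, -0.058 to 0.15 for Clec7a, -0.15 to 0.071 for Fcgr4, -0.098 to 0.025 for Fcgrt, -0.15 to 0.011 for Lgals4, -0.12 to 0.16 for Lyzl4, -0.040 to 0.19 for Tlr13 and -0.0017 to 0.48 for Tlr9. Apart from the genes removed by a signal filter, the causes were not tested. Adgre1, Trem2, Clec9a, Clec2i and Clec1b had dim probes, with SEs of 0.22, 0.14, 0.12, 0.14 and 0.09. How far a dim probe limits their precision was not tested.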
